A study of Taeniopygia guttata with 24 samples.

Results

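A set of 181 genes of the zebra finch Z chromosome is described here, those whose expression in the telencephalon of young birds was about doubled in males. They were chosen by their measured sex ratio from the Z genes that had at least 1 cpm (counts scaled to a common library size) in 3 or more samples, a minimum that 13891 genes of the table passed. A gene belongs to the set when its male to female (M:F) ratio, the mean cpm of 3 male pools over that of 3 female pools, averaged at least 1.9 over 1, 20 and 65 days post hatch (dph). Of 185 Z genes at or above this ratio, 4 that were named for exclusion were left out, and the other 458 Z genes that passed the minimum, these 4 among them, serve for comparison. The 181 are called near-doubled genes below. Z linkage was read from tables of the study, from a chromosome column for 147 genes and from a list of Z genes for 492.

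RNA of the telencephalon, the front part of the brain, was sequenced from male and from female birds at 1 dph, 20 dph, 65 dph and in adulthood, with 3 pools of each sex at each age. Adults were over 170 dph by the descriptions of the samples, and the study's text gives a lower minimum. The birds were bred in an aviary, birds of a nest were spread over the ages at random, and no treatment or genotype is named. Each pool joined the RNA of 3 birds of the same sex and age. A value is therefore an average over birds and over all cell types of the tissue. In such tissue, fewer cells of a type cannot be told apart from less RNA per cell. The neuronal gene SNAP25 averaged between 379 and 4637 cpm and the myelin gene MBP between 16.2 and 640 cpm over the groups of pools. The lowest values of both were at 1 dph, as in the neuronal markers SYT1 and NEFL. The neuronal marker TBR1 went the other way, with 170 cpm in males and 176 cpm in females at 1 dph. It averaged 114 to 120 cpm in the later groups.

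Male birds carry a pair of Z chromosomes and female birds a single Z with a W, so that most Z genes are present in females at a lower dose. Mammals and flies bring the output of the X chromosome of both sexes close to each other with mechanisms that act on the whole chromosome. Birds are known to lack such a mechanism, and their compensation is partial and differs from gene to gene, so that a Z gene without any compensation is read about in proportion to its copy number.

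Between 16680575 and 28772178 reads per pool were counted on genes. The value of 3 counts, used as the limit of detection, lay between 0.104 and 0.180 cpm, and this limit covers counting error only. Values are cpm scaled by TMM, edgeR's correction for the composition of libraries, unless stated otherwise. Of the near-doubled genes, 142 averaged at least 5 cpm over the 24 pools, 39 averaged less, and 12 of these averaged under 1 cpm. A symbol was given for 166 of the 181. CKMT2, LURAP1L and CAPSL reached 1 cpm in 1 group of male pools only. NXNL2 reached it only at 1 dph, in the male pools and, by library totals, in a female pool. PDE6B, RLN3, SIGLEC15 and ENSTGUG00000001811 reached it in male pools of more than 1 group and in no female pool. By library totals this also held for ENSTGUG00000007137. The minimum itself therefore favoured a difference between these pools and the others.

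Pools labelled adult lay apart from young pools of the same sex in these genes, and this bears on every adult value below. For each pool, the level of the 142 genes was expressed relative to the 3 female pools at 65 dph and the median was taken. The 9 young male pools lay between 1.89 and 2.01 and the 9 young female pools between 0.918 and 1.01, a gap that the choice of the genes by these same pools had fixed. The libraries labelled adult male 1, 2 and 3 lay at 1.38, 1.89 and 1.51, and those labelled adult female 1, 2 and 3 at 1.25, 1.37 and 1.36. Only the library labelled adult male 2 fell in the range of the young males, and no adult female library fell in the range of the young females. The same median over 359 other Z genes of at least 5 cpm, which were not chosen for a high ratio, was 1.39 to 1.49 in the young male pools and 0.912 to 1.05 in the young female pools. It was 1.16, 1.47 and 1.27 in the libraries labelled adult male 1, 2 and 3, and 1.17, 1.21 and 1.15 in those labelled adult female 1, 2 and 3. The median over genes with no stated Z linkage was 0.952 to 0.998 in all 24 pools.

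**Figure D1:**
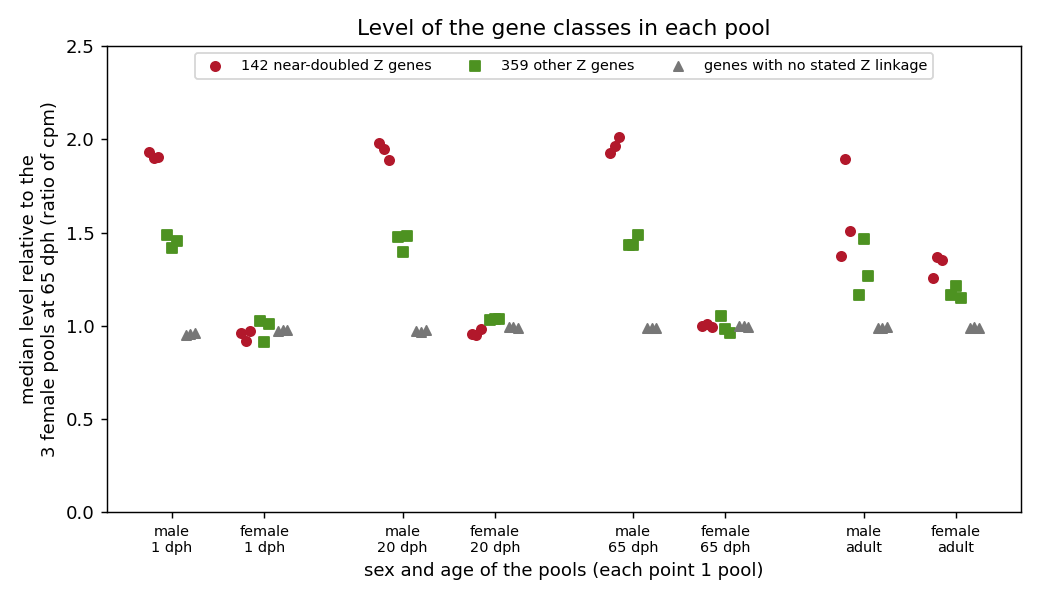
Median level of gene classes in each of the 24 pools, as the ratio of cpm to the mean of the 3 female pools at 65 dph, with 1 point per pool and male pools left of female pools at each age. The near-doubled genes (circles) lay at 1.89 to 2.01 in the 9 young male pools and at 0.918 to 1.01 in the 9 young female pools, whereas the 6 adult libraries lay at 1.25 to 1.89, and genes with no stated Z linkage (triangles) stayed near 1 throughout.

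A further gene outside the set bore on the labels. A planned rule asked for at least 1 cpm in each young female pool and over 5 times the highest young male value. It gave 0 genes, and a looser rule was set after the values were seen. The gene ENSTGUG00000017276, with neither a symbol nor a stated chromosome, was the single gene that passed the looser rule. That rule asked for every young female pool above every young male pool, at least a 2-fold mean difference and 0.3 cpm. It had 0 to 6 counts in the 9 young male pools and 8 to 31 in the 9 young female pools. In the libraries labelled adult male 1, 2 and 3 it had 9, 1 and 23 counts, and in those labelled adult female 1, 2 and 3 it had 17, 16 and 10 counts. By this gene, the libraries labelled adult male 1 and adult male 3 lay in the range of the young females. Adult results are therefore given with these 2 libraries and, as a choice made after seeing the data, without them. The adult female libraries, which also lay outside the range of the young females, remain in both fits. What sets these libraries apart was not tested.

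The young ratios chose the genes, so that the next values only describe the set. The median M:F ratio of the 181 genes was 1.996 at 1 dph, 2.04 at 20 dph and 1.95 at 65 dph. The other 458 Z genes had medians of 1.52, 1.35 and 1.47 at these ages, and the genes with no stated Z linkage had 0.980, 0.978 and 0.988. Among the 142 genes of at least 5 cpm, 114 had a ratio between 1.75 and 2.25 at each of the 3 young ages, and over the whole set 121 did. The difference between the highest and the lowest of the 3 young ratios of a gene had a median of 0.242 in the genes of at least 5 cpm and of 0.765 in the 39 below it, so that scatter was concentrated where reads were few.

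Every male pool lay above every female pool for 176 of the 181 genes at 1 dph, where 7.19% of all 13891 genes did. At 20 dph this held for 174 near-doubled genes, against 7.21% of all genes, and at 65 dph for 169, against 7.37%. Among the other 458 Z genes it held for 363, 323 and 349 at these ages. It held at all 3 ages for 162 near-doubled genes (89.5%), for 272 of the other Z genes (59.4%) and for 3.22% of all genes, and as the same pools chose the set, nothing is read from these counts. No near-doubled gene had all 3 female pools above all 3 male pools at any age.

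**Figure D2:**
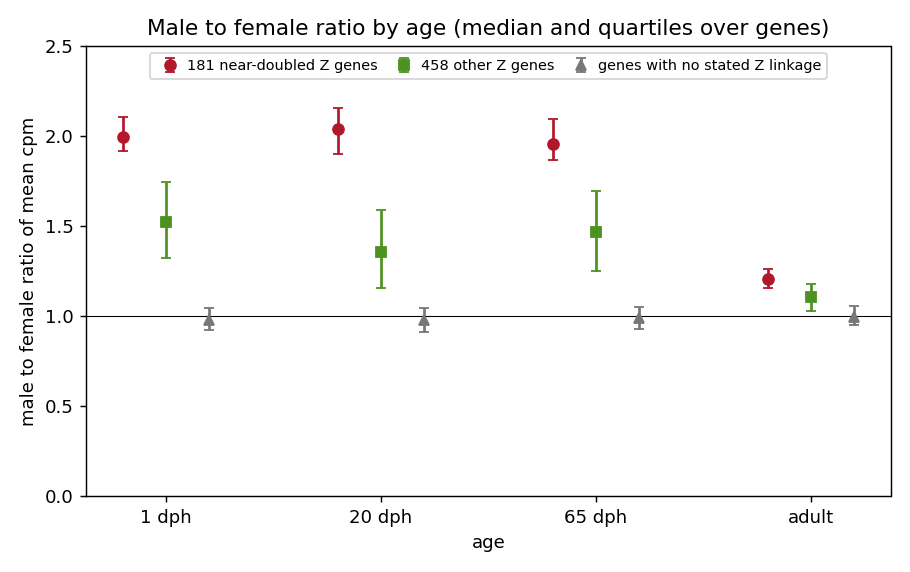
Male to female ratio of mean cpm at each age for the 181 near-doubled genes, the 458 other Z genes and the genes with no stated Z linkage, as medians with quartiles over genes. The near-doubled genes lay at 1.996, 2.04 and 1.95 at 1, 20 and 65 dph, the ages that chose them, and at 1.21 in adults, where the other Z genes lay at 1.10.

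The boundary of the set is not a gap. Just inside it were UBQLN1, a shuttle of ubiquitinated proteins to the proteasome, with a ratio of 1.9002, a gene known only by the identifier ENSTGUG00000001888 with 1.903, and SUSD1 with 1.905. Just outside were XPA, a damage recognition factor of nucleotide excision repair, with 1.897, the gene ENSTGUG00000002057 with 1.896, and the co-chaperone DNAJC21 with 1.895. The largest ratios belonged to genes with few reads, and they varied between ages. PDE6B, the beta subunit of the phosphodiesterase of rod photoreceptors, had ratios of 15.1, 4.72 and 1.55 at 1, 20 and 65 dph with a mean of 0.508 cpm. CKMT2, the creatine kinase of muscle mitochondria, had ratios of 0.680, 4.36 and 12.2 with a mean of 0.292 cpm. LURAP1L had 3.40, 2.93 and 2.11 with a mean of 0.521 cpm. These values rest on counts close to the limit of detection, and all of these genes reached 1 cpm in male pools only.

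Genes of the cytosolic ribosome and of the making of ribosomes were among the members read most. RPS6, a protein of the small ribosomal subunit and a target of growth signalling, had 1250.3, 1236 and 1187 cpm in the male pools at 1 dph, against 609, 767 and 591 cpm in the female pools. At 20 dph it had 628, 622 and 575 cpm in males and 294, 279 and 281 cpm in females. At 65 dph it had 530, 522 and 486 cpm in males and 244, 292 and 288 cpm in females. The sexes did not overlap at any of these ages. In adults the libraries labelled male had 322, 454 and 393 cpm and those labelled female 307, 320 and 330 cpm, and the lowest male library lay within the female range. RPS23 and RPL17, of the small and the large subunit, had young ratios of 1.85 to 2.24 and of 1.70 to 2.35. Ribosomal proteins have many processed copies in mammalian genomes, and whether the zebra finch genome holds such copies was not examined. How reads that map to several places were counted is not given in the sources used here. The levels of these genes are uncertain to that extent. The same holds for SMN1, SERF1A and CBWD1, for SMAD7, which stood in the table under 2 identifiers, and for the small nucleolar RNA gene SNORD58, which in humans lies within RPL17.

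Genes of the mitochondrion formed another group. ATP5ME, a subunit of the membrane part of ATP synthase, had 210, 245 and 224 cpm in males and 107, 133 and 124 cpm in females at 1 dph. At 65 dph it had 370, 355 and 347 cpm in males, against 168, 192 and 192 cpm in females. MRPS27, of the small subunit of the mitochondrial ribosome, averaged 229.9 ± 5.29 cpm in males and 115.2 ± 7.06 cpm in females at 1 dph (SD, n = 3 each). MRPL17, of its large subunit, averaged 117.9 ± 7.63 cpm in males and 63.3 ± 9.60 cpm in females. In each of these 3 genes the male and female pools did not overlap at any young age. Other members of this kind were NDUFS4, NDUFAF2 and MRPS30.

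Membrane traffic and protein folding were represented by widely expressed genes. CLTA, a clathrin light chain, had 265, 269 and 260 cpm in males and 125, 130 and 126 cpm in females at 20 dph. DCTN3, a subunit of the dynactin complex that links dynein to its cargo, averaged 310.9 ± 11.5 cpm in males and 148.8 ± 4.86 cpm in females at that age (SD, n = 3 each). SNX2, of the retromer complex that sorts cargo at endosomes, averaged 253.9 ± 8.12 cpm in males and 120.7 ± 6.25 cpm in females. DNAJA1, a co-chaperone of HSP70, averaged 388.2 ± 16.02 cpm in males and 198.9 ± 4.06 cpm in females, and TBCA, a folding cofactor of beta-tubulin, averaged 274.0 ± 18.003 cpm in males and 129.1 ± 3.73 cpm in females. TXN, the redox protein thioredoxin, averaged 272.9 ± 17.4 cpm in males and 123.9 ± 8.47 cpm in females.

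Lipid and RNA genes showed the same picture. HSD17B4, an enzyme of peroxisomal beta-oxidation, averaged 245.3 ± 12.1 cpm in males and 119.1 ± 10.6 cpm in females at 20 dph (SD, n = 3 each). STARD4, a carrier of cholesterol, averaged 150.5 ± 3.50 cpm in males and 77.3 ± 3.07 cpm in females, and PLPP1, a lipid phosphate phosphatase, averaged 160.9 ± 2.34 cpm in males and 75.5 ± 2.27 cpm in females. SMN1, which assembles spliceosomal ribonucleoproteins, averaged 68.2 ± 1.93 cpm in males and 36.7 ± 0.564 cpm in females.

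The roles of the Z genes were compared by 9 lists, put together with earlier results of these data known. The near-doubled genes made up 28.3% of all Z genes tested. They were 13 of 25 genes of the ribosome and translation, 19 of 37 genes of DNA repair, chromosomes and the cell cycle, and 16 of 36 genes of mitochondria and energy metabolism. Vesicle transport, the Golgi and the lysosome held 14 of 37, lipid metabolism 8 of 22, RNA processing and transcription 9 of 30, and ubiquitin and protein folding 9 of 32. At the other end stood growth factor and cytokine signalling with 3 of 33 and the synapse and neuronal excitability with 2 of 34. The median young ratio over all genes of a list ran from 1.28 for the synapse to 1.92 for the ribosome and translation. These counts describe the set, and no test was made of them. Of the 181 genes, 88 were in none of the lists.

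**Figure D3:**
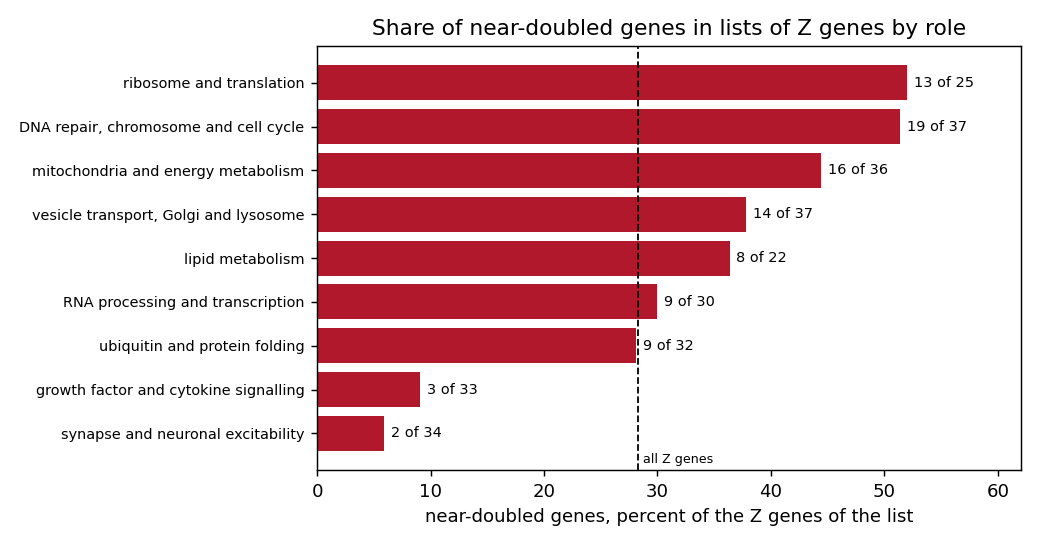
Near-doubled genes as a percentage of the Z genes in each of 9 role lists, with their number beside each bar and the share among all Z genes tested, 28.3%, as a dashed line. The shares ran from 2 of 34 for the synapse and neuronal excitability to 13 of 25 for the ribosome and translation.

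The pair of members from the synapse list were SNCAIP, which encodes the synuclein-binding protein synphilin-1, and RIT2, a small GTPase of neurons. SNCAIP had 130, 116 and 113 cpm in males and 65.1, 55.4 and 58.5 cpm in females at 1 dph, whereas RIT2 had 11.2, 11.8 and 10.6 cpm in males and 6.40, 4.69 and 6.34 cpm in females. The signalling list held GDNF, a neurotrophic factor, with a mean of 0.763 cpm over all pools, and both identifiers of SMAD7, an inhibitor of TGF-beta signalling, with means of 2.81 and 0.897 cpm.

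The order of genes along the chromosome was taken from the Z chromosome of the RefSeq assembly bTaeGut7.mat, on which 515 of the Z genes and 147 of the 181 were placed by symbol. Among the neighbours of near-doubled genes 28.6% were near-doubled themselves, and among the neighbours of other Z genes 28.6% were. The longest runs had 4 genes, and there were 3 of them. Among them were MTREX, PLPP1, SLC38A9 and DDX4, and PPIC, SNX24, SNX2 and SNCAIP. With the matched order cut into 4 equal parts, the near-doubled genes were 25.8%, 31.0%, 29.5% and 27.9% of the genes. The near-doubled genes were therefore spread along the matched order.

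In adults, which did not enter the choice of genes, the M:F ratio had a median of 1.21 with quartiles of 1.16 and 1.26, against 1.10 in the other Z genes. A ratio above 1 was found for 172 of the 181 genes and for 141 of the 142 of at least 5 cpm. It was also found for 385 of the 458 other Z genes and for 310 of their 359 genes of at least 5 cpm. Among genes with no stated Z linkage 48.2% had a ratio above 1. The ratio reached 1.5 in 4 genes, DDX4, ANKRD31, ENSTGUG00000006990 and FAM174A, and 1.9 in none. Every library labelled male lay above every library labelled female for 53 of the 181, where 4.80% of all 13891 genes did, and for 63 of the 458 other Z genes.

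No near-doubled gene was called for sex in adults by the quasi-likelihood test of edgeR at a Benjamini-Hochberg adjusted p of 0.05 over all genes, which called 0.0432% of all genes. At an unadjusted p of 0.05, 101 near-doubled genes passed (55.8%) and all of them were higher in males, against 20.5% of the other Z genes and 4.66% of all genes. The Wald test of DESeq2 called 2, INIP and MRPS30, of 16 called among all genes. A stagewise procedure, with a test over all contrasts before Holm's adjustment within each gene, called 98, all higher in males. It called 2.15% of all genes. Its opening test included the young sex contrasts that chose the genes, so that members passed it through that choice. Nothing is read from the 98. On the log2 scale the median difference of the 181 genes was 0.27. The count depended on the libraries. Without the library labelled adult male 1, 6 genes were called, among them CCNH, NOL6, CREB3, MRPS30 and ERCC8, of 18 called among all genes, and the median was 0.37, whereas it was 0.13 without the library labelled adult male 2. Without the libraries labelled adult male 1 and 3, the median was 0.52. These 2 libraries had lower levels of the near-doubled genes, 1.38 and 1.51, than the library labelled adult male 2, at 1.89. Leaving them out therefore favoured a higher median, and nothing is read from it. This fit keeps 1 adult male library and assumes that it varies like the pools of the other groups, so that its calls for sex are not given.

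**Figure D4:**
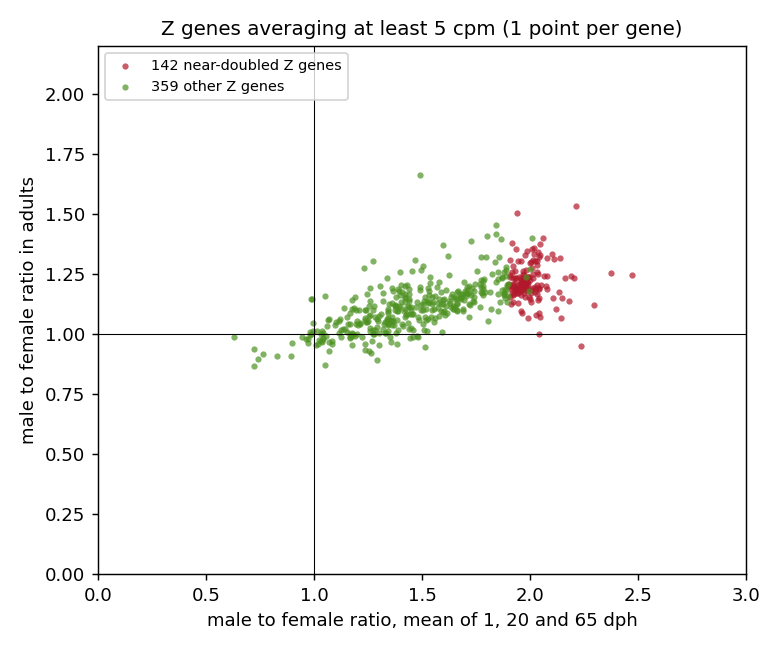
Male to female ratio in adults against the mean ratio at 1, 20 and 65 dph for the Z genes averaging at least 5 cpm, with 1 point per gene. The 142 near-doubled genes, which the horizontal axis chose, lay between 0.949 and 1.53 in adults, and none reached 1.9.

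Values of single libraries show the adult pattern. INIP, a subunit of a complex that senses single-stranded DNA, had 67.9, 83.7 and 66.4 cpm in the libraries labelled adult male 1, 2 and 3, against 47.9, 61.9 and 57.3 cpm in those labelled female. The difference was 0.38 ± 0.08 on the log2 scale (SE, adjusted p = 0.200 by edgeR), and all male libraries lay above all female ones. At 65 dph the same gene had 105, 106 and 107 cpm in males and 51.3, 58.0 and 54.0 cpm in females. MRPS30, of the mitochondrial ribosome, had 59.8, 80.6 and 67.0 cpm in the adult male libraries and 48.8, 54.6 and 55.5 cpm in the adult female ones, a difference of 0.38 ± 0.09 (SE, adjusted p = 0.210 by edgeR). NOL6, of ribosome assembly, had 75.2, 111 and 91.0 cpm in the adult male libraries and 73.5, 77.0 and 76.9 cpm in the adult female ones. In NOL6, as in RPS6, the library labelled adult male 1 lay within the range of the females and the library labelled adult male 2 well above it.

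The 3 genes with a symbol and the highest adult differences had few to moderate reads. ENSTGUG00000006990, without a symbol, lay between the second and the third of them, at 0.62 on the log2 scale. DDX4, an RNA helicase of germ cells, had 2.03, 3.43 and 1.73 cpm in adult male libraries and 0.781, 1.36 and 1.66 cpm in adult female libraries, a difference of 0.92 ± 0.38 (SE, adjusted p = 0.868 by edgeR). ANKRD31, known from mouse for a role in meiotic recombination, differed by 0.73 ± 0.31. FAM174A had 8.89, 11.5 and 12.4 cpm in males and 6.70, 7.23 and 7.89 cpm in females and differed by 0.59 ± 0.15 (SE, adjusted p = 0.334 by edgeR), without overlap of the libraries. The 3 lowest were CKMT2, LURAP1L and PDE6B, the genes with the highest young ratios, at -1.18 ± 0.76, -0.50 ± 0.55 and -0.11 ± 1.02. In each of these genes at least 1 adult male library was under the limit of detection, so that nothing is read from these estimates. CKMT2 had 0.113, 0.0505 and 0.102 cpm in adult male libraries and 0.0558, 0.508 and 0.0552 cpm in adult female libraries. Of the genes of at least 5 cpm only CKS2, a subunit of cyclin-dependent kinases, had a ratio under 1, with 2.14, 4.19 and 2.70 cpm in adult male and 3.24, 1.86 and 4.42 cpm in adult female libraries, which overlapped.

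Relative to 65 dph, the adult levels of the 142 genes were lower in males and higher in females, and as these values share the 65 dph pools with the choice of genes they are a description. In males the median log2 difference between adults and 65 dph was -0.30, with 10 of 142 genes higher in adults. In females it was 0.40, with 140 of 142 higher. The other Z genes moved in the same directions, with medians of -0.13 in males and 0.24 in females. Genes with no stated Z linkage had medians of 0.01 in males and -0.01 in females. In the 142 genes, the steps between 1 and 20 dph and between 20 and 65 dph had medians between -0.04 and 0.06 in both sexes. Within the groups, the coefficient of variation over 3 pools had a median of 17.004% in the libraries labelled adult male, against 8.29% in those labelled adult female and between 5.26% and 10.1% in the young groups.

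Per library, the count of the 142 genes above the midpoint between the male and female means at 65 dph shows which libraries carried these differences. The midpoint was taken on the log2 scale, where it lies lower than the midpoint of the cpm values themselves. It was 60, 139 and 118 in the libraries labelled adult male 1, 2 and 3, and 29, 61 and 54 in those labelled adult female 1, 2 and 3. In the pools at 65 dph themselves it was 142, 142 and 141 in males and 1, 0 and 0 in females. That split was fixed in advance, as these pools set the midpoint and entered the choice of genes. The library labelled adult male 2 was near the male pools at 65 dph by this count. The library labelled adult male 1 was near the adult female libraries.

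Changes with age were tested on the mean of both sexes, a measure that did not enter the choice of genes. From 1 to 20 dph, 57 of the 181 genes rose and 63 fell by edgeR at an adjusted p of 0.05, when 35.9% of all genes rose and 38.5% fell, 74.4% together. Of the near-doubled genes 66.3% were called at this step. With library totals in place of TMM, 36 rose and 101 fell, when 25.9% of all genes rose and 52.8% fell, and this scaling shifted the median of all genes by -0.24 on the log2 scale. Of the 120 genes called, 99 were also called in the same direction with library totals. Cell type markers moved at this step as well. The oligodendrocyte marker MBP averaged 16.2 cpm in males and 23.4 cpm in females at 1 dph, and 640 and 625 cpm in males and females at 20 dph. Of 4 listed markers of astrocytes and radial glia 2 were found, and they moved in opposite directions. SLC1A3 averaged 170 cpm in males and 139 cpm in females at 1 dph, and 350 and 356 cpm at 20 dph. FABP7 averaged 2300 cpm in males and 2033 cpm in females at 1 dph, and 767 and 820 cpm at 20 dph. Their part in the changes below was not tested.

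Counts by role follow, and differences between the lists were not tested. Of the 13 ribosome and translation genes 10 fell and 2 rose, and of the other Z genes of this list 6 fell and 3 rose. RPS6 fell by 1.11 ± 0.07 on the log2 scale, RPS23 by 1.28 ± 0.09 and RPL17 by 1.21 ± 0.10 (SE, adjusted p = 1.86e-12, 2.37e-11 and 2.40e-10 by edgeR), and with library totals 11 genes of the list fell and 0 rose. Of the 19 genes of DNA repair, chromosomes and the cell cycle 12 fell and 2 rose, as against 16 that fell and 1 that rose among the other Z genes of this list. Of the 9 RNA processing genes 7 fell and 0 rose, and of the other Z genes of this list 11 fell and 6 rose. Of the 16 mitochondrial genes 8 rose and 1 fell, but 7 rose and 7 fell with library totals, and of the other Z genes of this list 14 rose and 3 fell. ATP5ME rose by 0.63 ± 0.07 (SE, adjusted p = 3.45e-08 by edgeR) and MRPS27 fell by 0.18 ± 0.06 (SE, adjusted p = 0.00729 by edgeR). Lipid genes rose in 5 of 8 and fell in 0, with 2 falling under library totals, whereas of the other Z genes of this list 3 rose and 9 fell. PLPP1 rose by 0.78 ± 0.06 (SE, adjusted p = 8.72e-11 by edgeR). Vesicle genes rose in 7 of 14 and fell in 3, with 4 rising and 5 falling under library totals, and of the other Z genes of this list 11 rose and 8 fell.

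The remaining lists were small or mixed at this step. Ubiquitin and folding genes rose in 2 of 9 and fell in 3, with 2 rising and 6 falling under library totals. Of the other Z genes of this list 11 rose and 6 fell. The signalling genes rose in 2 of 3, and in 0 under library totals, and of the other Z genes of this list 13 rose and 8 fell. Of the other Z genes of the synapse list 21 rose and 4 fell. In the synapse list RIT2 rose by 0.62 ± 0.10 and SNCAIP fell by 0.85 ± 0.08 (SE, adjusted p = 6.50e-06 and 1.12e-09 by edgeR).

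Among genes with a symbol, the steepest rises between 1 and 20 dph were those of C7, a component of the membrane attack complex of complement, of ACOT12, which hydrolyses acetyl-CoA, and of SIGLEC15, a lectin of myeloid cells that binds sialic acid. C7 had 0.672, 0.503 and 1.02 cpm in males and 0.284, 0.426 and 0.206 cpm in females at 1 dph. At 20 dph it had 9.20, 8.50 and 10.4 cpm in males and 3.06, 3.87 and 4.45 cpm in females, a rise of 3.64 ± 0.20 on the log2 scale (SE, adjusted p = 1.21e-13 by edgeR). ACOT12 rose by 3.41 ± 0.18 (SE, adjusted p = 7.73e-14 by edgeR). SIGLEC15 was called as a rise too. At 1 dph it had 0.187, 0.232 and 0.109 cpm in males and 0.0355, 0.0355 and 0.0686 cpm in females. All female pools were under the limit of detection, so that no fold is given. SIGLEC15 also passed the minimum only through male pools at later ages, so that its rise was favoured by that minimum. The male pools lay above the female pools of the same age in C7 before and after the rise, an order that the choice of the genes favoured.

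The steepest falls among genes with a symbol were those of CKS2, of FANCC, which encodes a subunit of the Fanconi anaemia core complex of DNA repair, and of NXNL2, known from the mouse retina. CKS2 had 51.7, 44.5 and 38.5 cpm in males and 26.1, 27.3 and 22.5 cpm in females at 1 dph. At 20 dph it had 9.20, 7.44 and 7.36 cpm in males and 2.15, 2.92 and 3.56 cpm in females, so that it fell by 2.82 ± 0.16 on the log2 scale (SE, adjusted p = 1.99e-13 by edgeR). FANCC fell by 2.79 ± 0.20 (SE, adjusted p = 1.13e-11 by edgeR). NXNL2 was called as a fall, but it passed the minimum only through pools at 1 dph, so that its fall was favoured by that minimum. In these 3 falling genes and the 3 rising ones, the male pools lay above the female pools at both ages. The choice of the genes by these same pools favoured that order, and nothing is read from it.

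**Figure D5:**
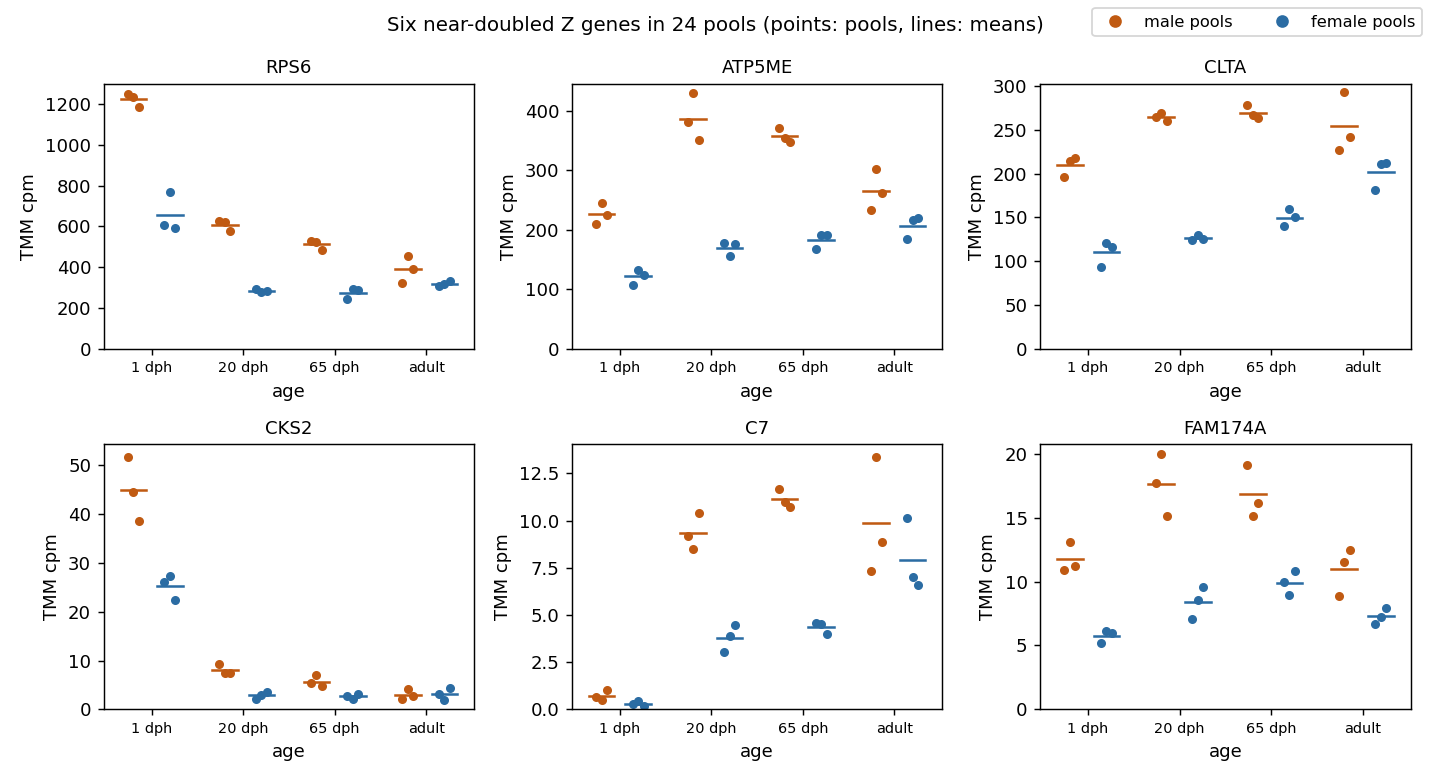
TMM cpm of 6 near-doubled genes in the 24 pools, with points for pools, lines for means of 3 pools, and male pools left of female pools at each age. RPS6 and CKS2 fell and C7 rose between 1 and 20 dph. The male pools lay above the female pools at both ages, an order that the choice of the genes favoured. In adults the libraries of both sexes overlapped in RPS6, CKS2 and C7. In ATP5ME, CLTA and FAM174A every adult library labelled male lay above every one labelled female.

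From 20 to 65 dph, 12 of the 181 genes rose and 15 fell, when 14.6% of all genes rose and 15.4% fell. The called share was 14.9% of the near-doubled genes, against 30.0% of all genes and 29.5% of the other Z genes. Leaving out 1 pool at a time gave 22 to 40 called members, the most without the library labelled adult male 2. Adult libraries enter this step through the shared estimate of the spread. The shares of all genes in these fits are not given here, so that nothing is read from the lower share of the set. PIP5K1B, a kinase that makes the membrane lipid PIP2, rose by 0.47 ± 0.07 and CCDC112 by 0.40 ± 0.10 (SE, adjusted p = 1.01e-05 and 0.00475 by edgeR). NXNL2 was called as a rise from 0.215, 0 and 0.140 cpm in females at 20 dph, near or under the limit of detection, and no fold is given. PIP5K1B had 64.2, 66.0 and 58.8 cpm in males at 20 dph and 83.4, 86.3 and 97.9 cpm at 65 dph. In females it had 30.5, 31.7 and 31.9 cpm at 20 dph and 45.0, 42.4 and 40.1 cpm at 65 dph, so that both sexes were higher at the later age without overlap. DDX4 fell by 1.12 ± 0.25, SUSD1 by 0.84 ± 0.18 and FREM1, a protein of basement membranes, by 0.68 ± 0.18 (SE, adjusted p = 0.00183, 0.000944 and 0.00626 by edgeR).

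From 65 dph to adults, 25 of the 181 genes rose and 5 fell, when 10.5% of all genes rose and 10.7% fell, 21.2% together. Rises also outnumbered falls in the other Z genes, of which 16.2% rose and 7.42% fell. Sex means of this step moved in opposite directions, as given above, and the count turned on the libraries labelled adult male. It was 13 rising and 12 falling without the library labelled adult male 2, and 42 and 3 without the library labelled adult male 1. The shares of all genes called in these fits are not given here, so that the counts are not read as particular to the set. DMRT2, a transcription factor of the doublesex family, rose by 1.17 ± 0.21 and CDC14B, a phosphatase of the cell cycle, by 0.67 ± 0.12 (SE, adjusted p = 0.000498 and 0.000501 by edgeR). DMRT2 had 1.35, 2.54 and 1.83 cpm in males and 0.823, 0.892 and 0.827 cpm in females at 65 dph. In adults it had 3.49, 2.57 and 2.40 cpm in the libraries labelled male and 2.46, 2.60 and 3.70 cpm in those labelled female, which overlapped. LOC105760863 rose by 0.63 ± 0.18 (SE, adjusted p = 0.0170 by edgeR), and without the libraries labelled adult male 1 and 3 its adjusted p was 0.210.

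The 5 genes that fell were FAM174A, LSM5, INIP, TXN and CETN3, a centrin of the centrosome. FAM174A fell by 0.53 ± 0.10, LSM5, which binds U6 small nuclear RNA, by 0.30 ± 0.06, and INIP by 0.26 ± 0.06 (SE, adjusted p = 0.000841, 0.00164 and 0.00362 by edgeR). Without the libraries labelled adult male 1 and 3 the adjusted p was 0.0507 for LSM5 and 0.113 for INIP. LSM5 had 103, 93.7 and 110 cpm in males at 65 dph and 61.0, 73.8 and 64.5 cpm in the libraries labelled adult male. Its female values were 51.5, 55.1 and 55.0 cpm at 65 dph and 49.0, 59.9 and 54.7 cpm in adults, which overlapped.

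Both 1 and 65 dph entered the choice of genes, so that a change of the sex difference between them is given as a description. It was called in none of the 181 genes by edgeR, which called 0.0072% of all genes, and in none by DESeq2. An unadjusted p of 0.05 was passed by 1.66% of the near-doubled genes, against 3.82% of all genes. The largest estimates belonged to CKMT2, PDE6B and RLN3, a relaxin peptide of the brain. All of these averaged under 1 cpm and reached 1 cpm in male pools only.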

How the data were processed

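The authors sequenced stranded mRNA libraries of 24 pools, aligned the reads with STAR 2.5.2b to the Ensembl annotation of the zebra finch, and deposited raw counts per gene made with HTSeq 0.6.0 without normalization. The strand setting and the handling of reads that map to several places are not given in the sources used here. All 24 columns were matched to samples by their labels. Genes reaching 1 cpm in 3 or more samples entered the fit in R 4.3.3 with edgeR 4.0.16 (TMM, 8 group means, quasi-likelihood, Benjamini-Hochberg over 13891 genes). DESeq2 1.42.0, its size factors, library totals, no filter, a stagewise test, adults alone, other thresholds of the ratio and leaving out pools were alternatives. The fit was tested on simulated data. Pools numbered without pairing across groups are separate pools of birds.

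The genes, role lists and tests were chosen with earlier results of these data known. Named genes are, among members, the highest and lowest 3 in adults and the 3 largest called changes of each direction and age step, both among genes with a symbol, the 3 most abundant of each role list, the 3 on each side of the ratio threshold, the 3 highest young ratios with a symbol and the 3 largest changes of the sex difference. Some genes that these rules give are not reported here. DNA methylation was not analysed here.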

Additional observations from a re-analysis of the deposited data

Results flagged for a closer look

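Values in data outside the comparisons drew attention in 2 libraries. The gene ENSTGUG00000017276, read mostly in young females, had 0.488 cpm of library totals in the library labelled adult male 1 and 1.13 cpm in the library labelled adult male 3. These lay above the 0 to 0.263 cpm of the 9 young male pools and within the 0.360 to 1.23 cpm of the 9 young female pools. The library labelled adult male 2 had 0.0492 cpm, and those labelled adult female 1, 2 and 3 had 0.921, 0.878 and 0.528 cpm. The near-doubled genes of the library labelled adult male 1 lay at 1.38 times the level of the female pools at 65 dph, near the 1.25 to 1.37 of the adult female libraries. Those of the library labelled adult male 3 lay at 1.51, above every adult female library.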

How the results depend on the processing

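The 181 genes became 180 with library totals (all 180 shared), 184 with DESeq2 size factors (181 shared), 187 with ratios of medians (166 shared), 141 with 10 cpm as the minimum, and 170 to 193 when 1 young pool was left out. No gene was called for sex in adults with DESeq2 size factors, library totals, no filter, the 6 adult libraries alone, or ratio thresholds of 1.8 and 2.0. DESeq2's Wald test called 2, the stagewise test 98, and the fit without the libraries labelled adult male 1 and 3 called 66. Leaving out each pool in turn gave 0 to 6 for sex in adults, 116 to 125 for 1 to 20 dph, 22 to 40 for 20 to 65 dph, 24 to 45 for 65 dph to adults, and 0 for the change of the sex difference. The median adult log2 M:F ranged from 0.13 to 0.37 when 1 adult library was left out and was 0.52 without the libraries labelled adult male 1 and 3. In that fit 41 genes were called from 20 to 65 dph and 52 from 65 dph to adults. The shares of all genes called at these steps in that fit are not given here. The fit left out no pool at 20 or 65 dph and keeps 1 adult male library. Whether the 41 and 52 are particular to the set was not tested, and nothing is read from them. With library totals, the step from 1 to 20 dph turned negative in DNAJA1 (-0.17), TBCA (-0.22) and HSD17B4 (-0.18), which had not been called. That scaling shifted the median of all genes by -0.24 at this step. Of 2755 values of named genes under alternatives, 2683 kept their side of the threshold, 13 lost the call and 56 gained it. In 3 the direction reversed with a call in either fit. Changes of direction between uncalled values are counted among the 2683. The cause was not tested. No paired analysis was possible because the labels number the pools across the series and the groups share no number. Reads were few in the 12 genes averaging under 1 cpm, whose ratios are the least certain.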
